A study of Mus musculus with 2 samples.

Results

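The genes described here encode the constant parts of mouse antibodies: the heavy chains of IgM (Ighm), IgD (Ighd), IgG (Ighg1, Ighg2b, Ighg2c and Ighg3) and IgA (Igha), the kappa light chain (Igkc), and the J chain (Jchain), the small protein that links IgA and IgM into polymers. They were chosen by name, 9 of the 31053 genes in the deposited table, and held 681286 of its 67037274 unique molecular identifiers (UMI, each standing for 1 captured mRNA), or 1.02%. The study isolated immune cells from mouse liver with collagenase, sorted them and profiled single cells in droplets (10x Genomics Chromium). Its labels name a WT sample (Rcrin flox mice, per the series title) and an Rcrin KO sample (a liver conditional knockout, per the series title), both of the strain labelled RedMUC298trTg and 8 weeks old. The driver of the knockout, the sort gate, the number of animals and the kit's read end were not given in the sources used here.

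The 2 samples' matrix, gene and barcode files were identical, so that they were counted as 1 sample of unknown genotype. No comparison between WT and Rcrin KO was made, and no value below has a replicate. The intervals given are exact 95% intervals, Clopper-Pearson for shares and Poisson for summed UMI. They cover counting error only and leave out differences between cells, animals and libraries. Of 11192 barcodes with 502 to 93990 UMI each, 10366 passed the filters of 500 UMI, 200 genes and at most 10% mitochondrial UMI. After 351 predicted doublets were set aside, 10015 cells fell into 27 clusters, built without any immunoglobulin gene or Jchain, and 24 of these were named from marker lists. A level in a class of cells is the summed UMI of a gene per 1000000 UMI of that class (CPM).

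In a naive B cell, 1 long transcript that starts at the rearranged variable gene is spliced to Ighm or to Ighd, so that IgM and IgD with the same binding site sit on the surface with Cd79a and Cd79b. Class switching deletes the intervening DNA and joins the variable gene to a downstream constant gene, so that an antibody-secreting plasma cell expresses a single heavy chain class and a single light chain. The liver drains the gut and passes IgA into bile. Its epithelial cells carry the polymeric immunoglobulin receptor (Pigr) that moves J chain-linked antibody across the cell.

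On GRCm38 (mm10) with the GENCODE M21 annotation, the heavy chain genes lie on the minus strand of chromosome 12, in the order in which switching meets them. Ighm lies at chr12:113418558-113422730, Ighd at chr12:113406604-113416324, Ighg3 at chr12:113356224-113361232, Ighg1 at chr12:113325240-113330523, Ighg2b at chr12:113302965-113307933, Ighg2c at chr12:113285325-113288932 and Igha at chr12:113254830-113260236. Igkc lies on the plus strand at chr6:70726435-70726966 and Jchain on the minus strand at chr5:88519809-88527891. All 9 had 1 row in the table with the same gene identifier as the annotation, and Ighg2a, the allele of other strains, was not among the rows.

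The heavy chains that J chain joins differ from IgG at the very end of the secreted protein. That end is shown here because the plasma cells, chosen by their Jchain UMI, were of both kinds. The last 20 codons before the stop, in the last secreted-form exon, are printed 5′ to 3′ with cysteine codons in capitals, for Ighm (chr12:113420870-113420929), Igha (chr12:113258771-113258830) and Ighg2c (chr12:113287392-113287451). In IgM and IgA the next-to-last codon is the cysteine that bonds to J chain. The IgG end holds 0 cysteine codons, as did those of the other IgG genes.
Ighm: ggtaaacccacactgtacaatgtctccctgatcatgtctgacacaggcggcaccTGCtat
Igha: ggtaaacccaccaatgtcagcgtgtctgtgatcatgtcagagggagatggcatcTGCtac
Ighg2c: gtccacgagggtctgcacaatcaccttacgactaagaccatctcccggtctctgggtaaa

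The IgG genes are close relatives, and the deposited UMI were assigned among them by the authors' counting. Their hinge exons, which link the arms to the stem of the antibody, are shown because they differ in length and in the number of cysteine codons. Between pairs, 39.6% to 77.3% of their bases were identical. They were the least alike coding exon in every pair but Ighg2b and Ighg2c, whose last constant domain exon was 76.6% identical against 77.3% in the hinge. They lie at chr12:113360529-113360576 (Ighg3), chr12:113329844-113329882 (Ighg1), chr12:113307261-113307326 (Ighg2b) and chr12:113288263-113288325 (Ighg2c). Capitals mark the cysteine codons in the reading frame.
Ighg3: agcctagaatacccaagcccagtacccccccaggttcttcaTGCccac
Ighg1: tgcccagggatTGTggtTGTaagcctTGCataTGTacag
Ighg2b: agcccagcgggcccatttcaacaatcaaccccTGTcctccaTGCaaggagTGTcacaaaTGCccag
Ighg2c: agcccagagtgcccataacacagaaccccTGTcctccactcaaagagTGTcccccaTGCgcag
Over the whole coding sequence, Ighg2b and Ighg2c were 85.6% identical, and the other IgG pairs 73.9% to 75.5%. Over the last 150 bases of the transcript, Ighg2b and Ighg2c were 87.3% identical and the other pairs 56.2% to 68.8%. Of the IgG genes, Ighg2b and Ighg2c can thus be least well told apart by sequence.

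Plasma cells were taken as barcodes with at least 50 Jchain UMI. There were 77, or 0.743% of the barcodes that passed the filters (interval 0.587% to 0.928%). The limit fell in a gap: the lowest members held 120, 133 and 143 Jchain UMI, and the barcodes just outside held 35, 26 and 14. Of the 77, 75 lay in 1 cluster, and all 75 cells of that cluster were above the limit, although Jchain and the immunoglobulin genes had no part in its making. Their other genes were those of plasma cells. Xbp1, which drives the secretory programme, and Txndc5 had UMI in 77 of 77 cells, Mzb1, a chaperone of antibody folding, in 76, and Prdm1, the repressor that ends the B cell programme, in 70. Of the B cell genes, Cd79a remained in 76 and Cd79b in 74, while Ms4a1 was found in 13, Pax5 in 4 and Cd22 in 3.

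The other 2 barcodes stood apart. The first, in a Kupffer-like cluster, held 304 Jchain, 1478 Igha and 1203 Igkc UMI among 30244, with 370 UMI of the plasma markers (9 of 10 genes) and 342 UMI of the Kupffer markers (8 of 9 genes). The second, in a B-like cluster, held 133 Jchain and 160 Igha UMI among 14785, with 35 UMI of plasma markers and 50 of B markers. Neither was predicted a doublet, and what they contain was not tested further.

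IgA was the leading class among the 77 cells, all chosen by Jchain. Of the 77 plasma cells, 49 had Igha as the heavy chain with most UMI (63.6%, interval 51.9% to 74.3%). An IgG gene led in 27 (35.1%, interval 24.5% to 46.8%). These 2 shares are parts of the same 77 cells and take nearly all of them, so that their intervals are not independent. Ighm led in 1 cell (1.30%). Ighd led in 0 of 77, and so did Ighg3. A count of 0 allows a share of up to 3.896% if 3 cells are taken as its limit, and 4.68% by the Clopper-Pearson interval. Among the IgG-led cells Ighg2c led in 13, Ighg2b in 11 and Ighg1 in 3. The intervals of Ighg2c (9.31% to 27.1%) and Ighg2b (7.35% to 24.1%) overlapped, so that these 2 cannot be ordered, while Ighg1 (0.811% to 10.97%) overlapped both.

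**Figure D1:**
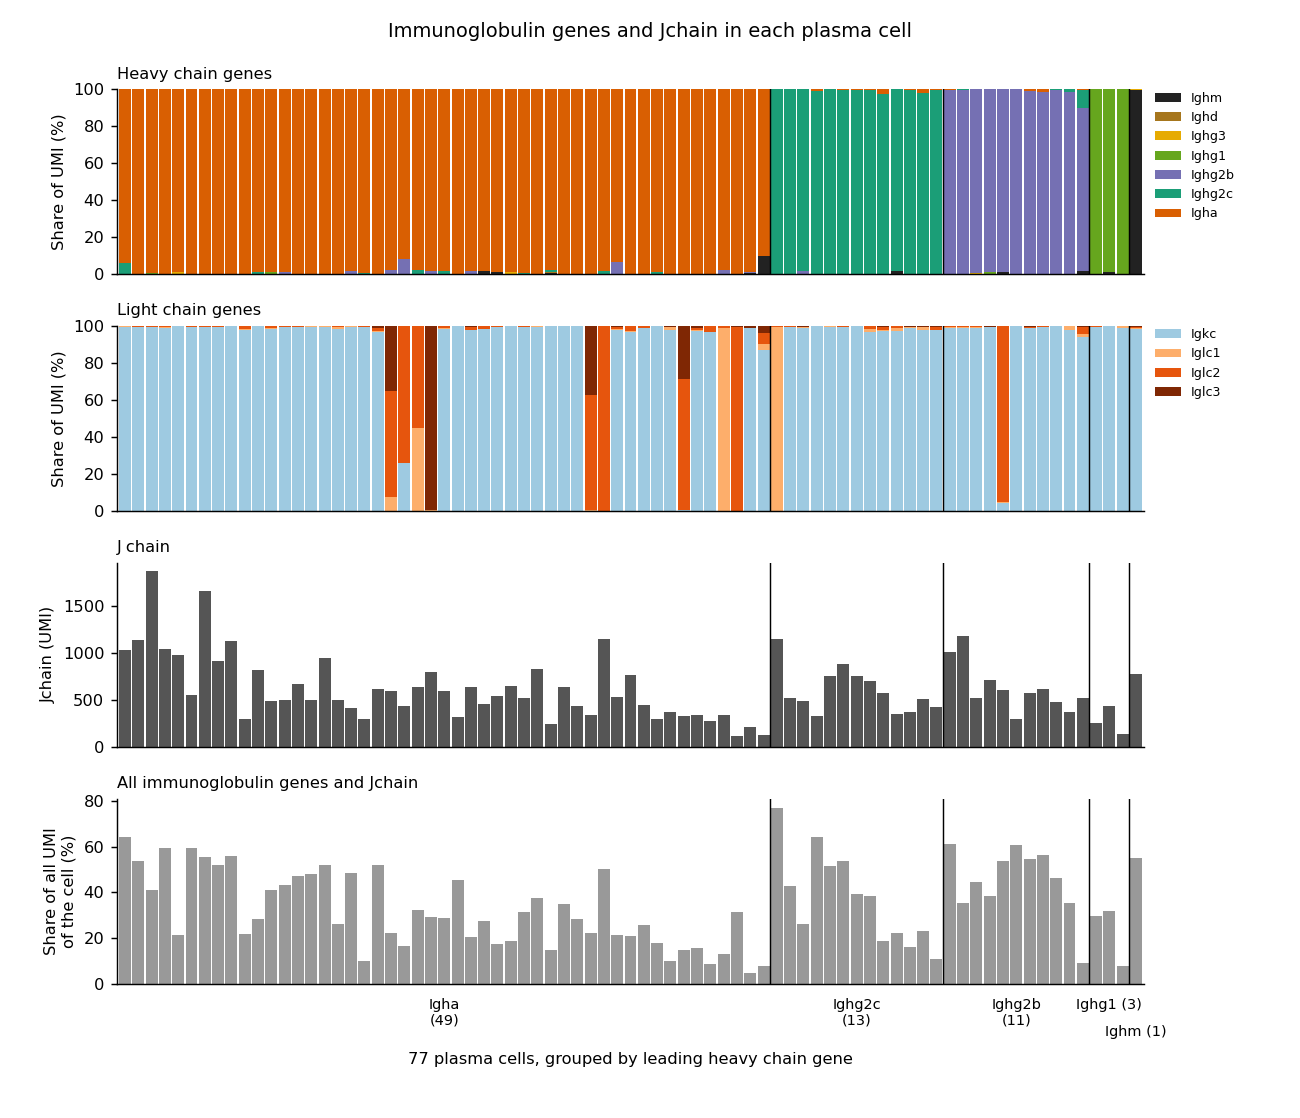
Each of the 77 columns is 1 plasma cell, grouped by its leading heavy chain gene with the number of cells in brackets and sorted by the UMI of that gene; the panels give the share of heavy chain UMI by gene (%), the share of light chain UMI by gene (%), Jchain UMI, and the share of all the cell's UMI from immunoglobulin genes and Jchain (%). Nearly every column is a single heavy chain colour, and 66 cells are kappa and 11 lambda. Jchain, by which all 77 were chosen, is present in the IgG-led cells as in the Igha-led ones.

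Each plasma cell was close to pure for its class, as the stacked columns show. The leading gene took between 88.3% and 100% of the heavy chain UMI of a cell, with a median of 99.6%. It took at least 90% in 76 of the 77 cells and at least 98% in 66. A single gene held all heavy chain UMI in 18. In 35 cells a second heavy chain had 10 or more UMI, from 10 to 215 with a median of 25. In 26 of these 35 it was the only other heavy chain seen. Of the most similar pair, 7 of the 11 Ighg2b-led cells held no Ighg2c UMI, and 11 of the 13 Ighg2c-led cells held no Ighg2b UMI. The least pure of the 77 cells was an Ighg2b-led one with 92 Ighg2c UMI, and Ighg2b-led cells had a median purity of 98.99%. Whether the second chains were free RNA, a second cell or misassigned reads was not tested.

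The amount of heavy chain RNA varied widely from cell to cell. Igha ran from 160 to 3341 UMI in the Igha-led cells, with a median of 1284. The leading gene ran from 543 to 4398 UMI in the IgG-led cells, with a median of 2143. The ranges overlapped over most of their length. Total UMI per cell also differed, with medians of 19174 in Igha-led and 23787 in IgG-led cells. Immunoglobulin genes and Jchain together took from 4.82% to 77.01% of all the UMI of a plasma cell, with medians of 28.3% in Igha-led and 38.5% in IgG-led cells. The only Ighm-led cell held 3897 Ighm, 5481 Igkc and 775 Jchain UMI, and its other heavy chain UMI were 15 of Ighg3. Without it, Ighm in the plasma-like cluster went from 2422 to 87.9 CPM.

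Among the 77 cells, all chosen by Jchain, its RNA was as high in IgG-led as in Igha-led cells, although IgG is not joined by J chain. Igha-led cells held 120 to 1872 Jchain UMI with a median of 537, and IgG-led cells 143 to 1180 with a median of 522. The ranges overlapped almost completely. Relative to 100 heavy chain UMI, Jchain had a median of 44.5 in Igha-led cells (13.9 to 121) and 28.3 in IgG-led cells (12.6 to 62.6). This ratio was thus lower in IgG-led cells at the median, through their larger number of heavy chain UMI, and the ranges again overlapped. Since Jchain chose the plasma cells, its high level in them is no finding. Its level by class was not used in that choice, but an IgG cell without Jchain RNA would not have entered the 77. Of the 24 B-like cells with more Igha and IgG than IgM and IgD UMI, described below, 1 passed the Jchain limit. Under that limit, a T-like barcode held 282 Ighg2b, 1268 Igkc and 4 Jchain UMI, with UMI of 8 of the 10 plasma markers. A barcode of an unnamed cluster held 191 Ighg2b, 763 Igkc and 35 Jchain UMI, with UMI of 6 of the 10. What these barcodes contain was not tested.

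Most plasma cells held mainly 1 kind of light chain. Igkc led over the 3 lambda genes (Iglc1, Iglc2 and Iglc3, on chromosome 16) in 66 of 77 plasma cells (85.7%, interval 75.9% to 92.6%). In the kappa-led cells Igkc ran from 669 to 11770 UMI with a median of 4284, and the lambda genes together from 2 to 187 with a median of 39. In the 11 lambda-led cells the lambda genes ran from 273 to 18796 UMI with a median of 2829, and Igkc was under 10 UMI in 9 of them. The other 2 held 837 and 222 Igkc UMI, and Igkc took under 90% of the light chain UMI in 1 kappa-led cell. Iglc2 had the most UMI in 8, Iglc1 in 2 and Iglc3 in 1. Iglc2 and Iglc3 share 95.9% of their coding bases, and the split between them is uncertain for that reason. Lambda led in 9 of 49 Igha-led cells (18.4%, interval 8.76% to 32.0%) and in 2 of 27 IgG-led cells (7.41%, interval 0.910% to 24.3%), and these intervals overlap.

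Kappa, heavy chain and J chain RNA were correlated across cells. In the 66 kappa-led cells there were 81.1 to 554 Igkc UMI per 100 heavy chain UMI. The median was 264 in Igha-led and 271 in IgG-led cells. Pearson's r of log2 Igkc against log2 heavy chain UMI was 0.81 over these 66 cells, and that of log2 Jchain against log2 heavy chain UMI was 0.69 over all 77. These are descriptions across cells of 1 library, which share its capture and differ in depth.

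A part of the plasma cells carried division genes. With at least 10 UMI of Mki67, Top2a, Birc5 and Stmn1 together, a limit set after their values were seen, there were 21 such cells (27.3%, interval 17.7% to 38.6%), 14 of them Igha-led and 7 IgG-led. The share was 28.6% in Igha-led and 25.9% in IgG-led cells. The limit was not scaled to depth, so that cells with more UMI outside the immunoglobulin genes and Jchain pass it more easily. Such cells are deeper or hold a smaller immunoglobulin share. The differences below in total UMI, in immunoglobulin share and per UMI outside these genes are therefore not read as findings. At the median these cells held a smaller share of antibody RNA, with ranges that overlapped. Their immunoglobulin share ran from 4.82% to 38.5% with a median of 18.1%, against 8.01% to 77.01% with a median of 41.9% in the other 56. The leading heavy chain had a median of 918 UMI against 1801.5, and Jchain 440 against 597, while total UMI had medians of 27785 and 19152.5. Per 10000 UMI outside the immunoglobulin genes and Jchain, Jchain had medians of 204 and 567.

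Igha-led and IgG-led cells were then compared for the listed genes of homing, secretion, B cell subsets and division, with CPM here counted per 1000000 UMI outside the immunoglobulin genes and Jchain. Of 60 listed genes, 30 reached 50 CPM in either group. Of these, 5 were at least 2-fold higher and 4 at least 2-fold lower in Igha-led cells. Over all 3171 genes with that level, 3.09% were at least 2-fold higher and 3.25% at least 2-fold lower. The median log2 fold of the 30 genes was -0.13, against 0.03 over all genes. There is no replicate behind these folds, and the 49 and 27 cells come from 1 library.

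Homing receptors gave 5 of the 9 genes past that limit, with a median log2 fold of 0.76 over the 7 compared. Higher in Igha-led cells were Ccr10, a receptor for chemokines of mucosal epithelium (151 against 63.4, with UMI in 33 of 49 and 11 of 27 cells), Itgb7, a subunit of the gut-homing integrin (370 against 171), and Klf2, a factor that controls trafficking genes (744 against 300). Higher in IgG-led cells were Cxcr3, a receptor for interferon-induced chemokines (110 against 23.2, in 16 of 27 and 11 of 49 cells), and Cxcr4, the receptor for the bone marrow chemokine Cxcl12 (122 against 54.6, in 21 of 27 and 19 of 49). Outside homing, Tnfrsf17, the survival receptor BCMA, had the largest fold of the listed genes higher in Igha-led cells, at 497 against 155, and Anxa2 was at 603 against 286. Vpreb3, at 55.9 against 153, and Cd9, at 36.8 against 79.8, were the others at least 2-fold lower. Ccr9, the receptor for the small intestine's chemokine, stayed under 50 CPM in both.

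Of 8 listed genes of secretion and plasma cell identity only Tnfrsf17 passed the 2-fold limit. Xbp1 was at 1506 in Igha-led and 1807 in IgG-led cells, Mzb1 at 5996 and 7106, Prdm1 at 236 and 228, and Derl3, a channel component for misfolded proteins, at 794 and 631. Sdc1, the surface proteoglycan CD138, was at 127 and 221. The intervals of Xbp1, Mzb1, Derl3 and Sdc1 were apart and those of Prdm1 overlapped. The 4 division genes also stayed within 2-fold, with Mki67 at 660 and 791. Top2a, at 239 and 462, and Stmn1, at 190 and 322, had intervals that were apart. Top2a had UMI in 13 of 49 and 9 of 27 cells, and Stmn1 in 17 and 9. Without the highest cell of each group, Top2a was at 171 and 329 and Stmn1 at 154 and 230. The intervals leave out such differences between cells, so that those apart are not read as differences between the groups.

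**Figure D2:**
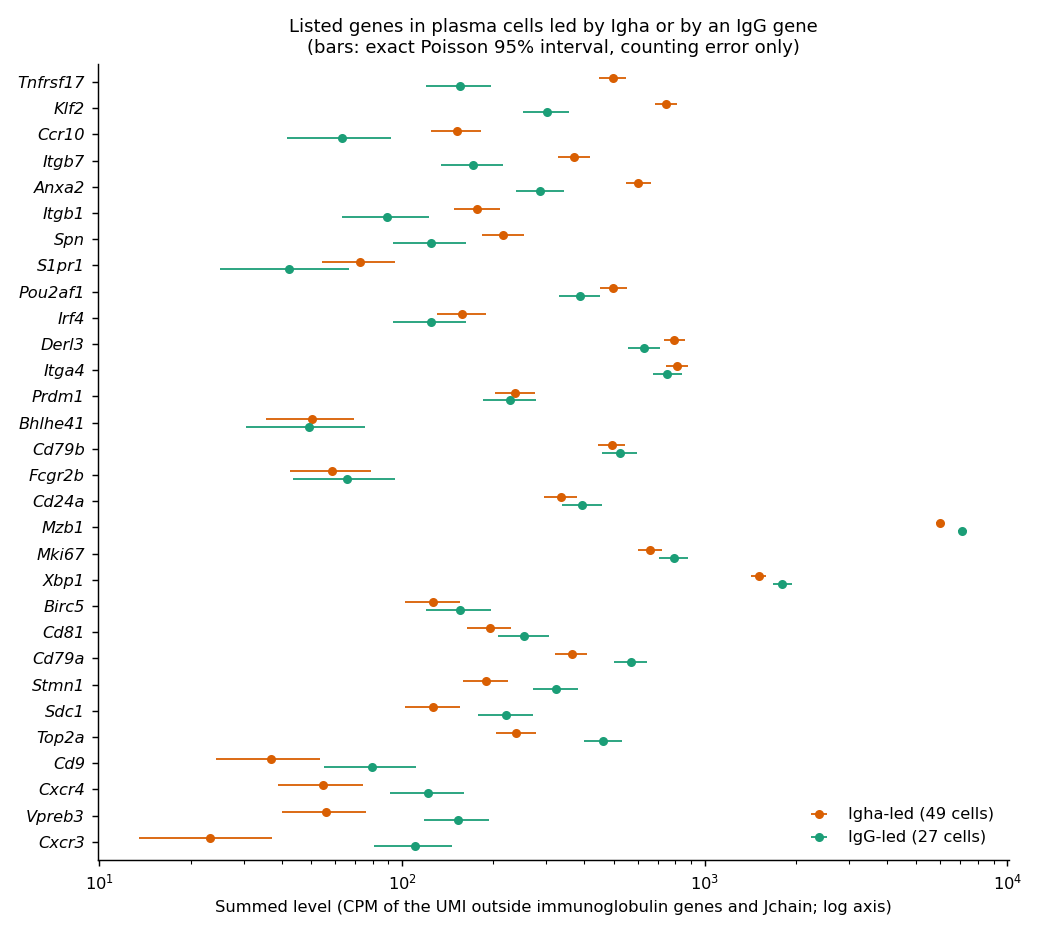
Level of each listed gene that reached 50 CPM in either group, summed over the 49 Igha-led (orange) and 27 IgG-led (green) plasma cells, in CPM of the UMI outside immunoglobulin genes and Jchain on a log axis, with exact Poisson 95% intervals; genes are ordered by fold. Tnfrsf17 (497 against 155) stands at the Igha-led end and Cxcr3 (23.2 against 110) at the IgG-led end.

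Variable genes were seen in part of the cells. The leading gene was taken where the variable genes of a kind summed to at least 10 UMI. This gave a heavy chain variable gene in 44 plasma cells, with 28 different genes among them, and Ighv9-3 was the most frequent, in 4 cells that were all Igha-led. A kappa variable gene led in 57 cells, with 29 different genes, and Igkv10-94 was the most frequent, in 8 cells, 4 Igha-led and 4 IgG-led. Lambda variable genes reached 10 UMI in 32 cells, 9 of them lambda-led. In 21 of the 66 kappa-led cells both the kappa and the lambda variable genes reached 10 UMI. Iglv1 led the lambda ones in these 21 cells, with 9 to 120 UMI. Taking the light variable gene of the leading kind, a heavy and a light one were found in 40 cells, with 36 different pairs. Only 3 pairs occurred in more than 1 cell. Ighv10-1 with Igkv10-94 was found in 3 cells, led by Igha, Ighg2b and Ighg2c, and Ighv1-77 with Igkv1-135 in 2, led by Igha and Ighg2c. Ighv9-3 with Iglv1 was found in 2 Igha-led cells. A shared pair of gene names does not show descent from 1 cell, since the junctions are not in a count table.

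Over all classes, most UMI of the switched chains and Jchain lay in these 77 cells, and most UMI of Ighm and Ighd did not. The plasma cells held 98.4% of the Jchain UMI of all barcodes that passed the filters, 97.6% of Igha, 97.0% of Ighg2c, 95.8% of Ighg2b, 92.5% of Ighg1 and 66.7% of the 141 Ighg3 UMI. They held 73.9% of Igkc, 6.57% of Ighm and 0.0956% of Ighd. In the plasma-like cluster Igkc stood at 184415 CPM and Igha at 41797. Ighg2b followed at 16925, Ighg2c at 15755 and Ighg1 at 1561. Ighe, the IgE heavy chain, was at 0 in every class.

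**Figure D3:**
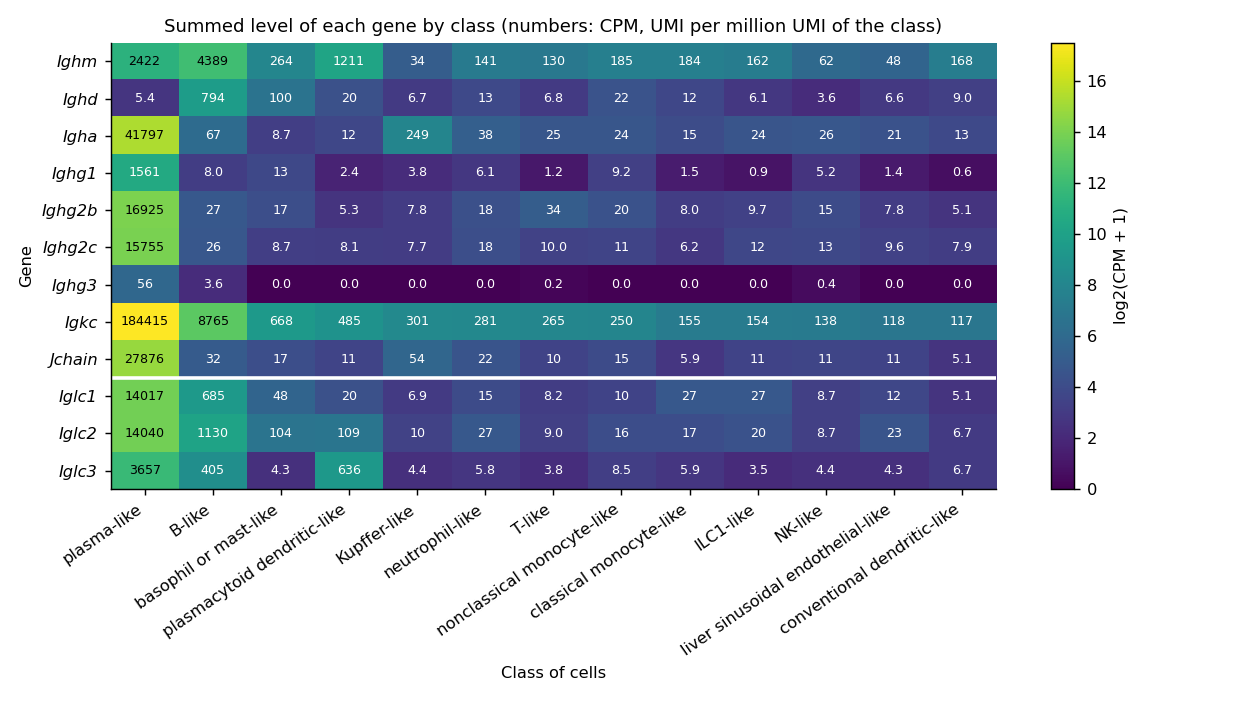
Summed level of the 9 genes, and of the 3 lambda genes below the white line, in the 13 classes with at least 30 cells, ordered by Igkc; colour is log2(CPM + 1) and the numbers are CPM. The plasma-like column is highest for all genes but Ighm and Ighd, which are highest in B-like cells, and Ighm and Iglc3 also stand out in plasmacytoid dendritic-like cells.

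Likeness was taken over the 13 classes. The 3 genes closest to Ighd among 11127 compared (Pearson's r of log2(CPM + 1)) were Cxcr5, Fcer2a and Fcmr, at 0.96 each. These encode the follicle-homing receptor, the low-affinity IgE receptor and the IgM receptor. For Jchain they were Ighv14-3, Igkv8-30 and Igkv14-111 (0.97 to 0.98), and for Igkc Eaf2, Iglc2 and Igkv17-121 (0.96 to 0.98). For Ighm the closest were Gm30211, AC125149.3 and Ly6d, at 0.89 to 0.91, lower than for the other 8 members. For Igha they were Ska1, Nek2 and Igkv14-111 (0.96 to 0.97), and for Ighg2b Pls1, Alpl and Palm3 (0.97 to 0.98). Igkv14-111 was thus among the closest to both Jchain and Igha. The points are 13 sums from 1 library and share its depth and free RNA.

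IgM and IgD were then followed in the 2975 B-like cells, which had UMI of all 10 B markers in at least 25% of cells each. Ighm was at 4389 CPM (4350 to 4430) and Ighd at 794 CPM (777 to 812), or 5.53 Ighm UMI for each Ighd UMI. A cell held 0 to 115 Ighm UMI with a median of 12, 0 to 22 Ighd UMI with a median of 2, and 0 to 760 Igkc UMI with a median of 27. Both Ighm and Ighd had UMI in 82.0% of the cells, Ighm alone in 17.4%, Ighd alone in 5 cells and neither in 13. At a median of 3239 UMI per cell this share depends on depth: with every cell thinned to 1000 UMI, it was 48.9%.

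The 3 B-like clusters were not alike. Clusters 1 and 2 (1537 and 892 cells) had nearly the same Ighm, at 3614 and 3612 CPM, and Ighd at 903 and 857 CPM. Cluster 7 (546 cells) had more Ighm, at 8007 CPM (7879 to 8136), and less Ighd, at 381 CPM (353 to 410). There were 21.02 Ighm UMI per Ighd UMI in cluster 7, against 4.004 and 4.216 in the others. The median cell of cluster 7 held 26 Ighm and 1 Ighd UMI, against 10 and 3 in cluster 1. After thinning, both chains were seen in 27.3% of its cells (23.6% to 31.3%), against 53.2% and 54.8%. More Ighd than Ighm UMI occurred in 103 B-like cells, 71 in cluster 1, 32 in cluster 2 and 0 in cluster 7.

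**Figure D4:**
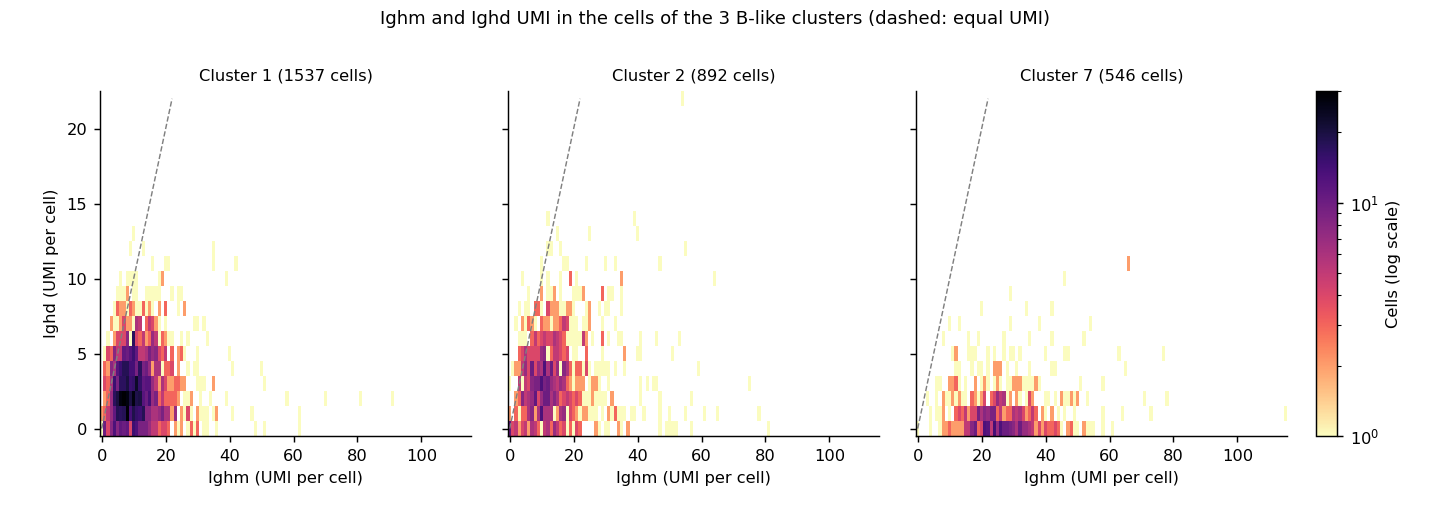
Ighm (horizontal) and Ighd (vertical) UMI per cell in the 3 B-like clusters; colour is the number of cells on a log scale and the dashed line marks equal UMI. Clusters 1 and 2 centre near 10 to 13 Ighm and 3 Ighd UMI, and cluster 7 is shifted to a median of 26 Ighm and 1 Ighd UMI.

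Cluster 7 was led by Vpreb3, a gene of precursor and immature B cells, at 824 CPM against 141 and 88.3 in clusters 1 and 2. Of the 4 listed genes of transitional B cells, which have newly left the bone marrow, all were higher there than in either other cluster. Rag1, which cuts DNA for receptor rearrangement, was at 65.4 CPM against 0.2 and 0.3, with UMI in 43 of the 546 cells, Cd93 at 65.98 and Cd24a at 388. The follicular gene Fcer2a was lower (118 against 264 and 340 CPM). These genes took part in the clustering and their levels are a description. The clusters were built without Ighm and Ighd, so that the shift of these was not set by it. Grouped by Vpreb3 and Fcer2a alone, the 625 B-like cells with a Vpreb3 but no Fcer2a UMI had 11.6 Ighm per Ighd UMI, and the 964 with a Fcer2a but no Vpreb3 UMI had 3.74.

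Light chains were less separate in cluster 7. At least 10 UMI of Igkc and at least 10 of the lambda genes were found together in 51.6% of its cells (47.4% to 55.9%), against 8.72% in cluster 1 and 14.3% in cluster 2. Lambda led over kappa in 23.4% of its cells, against 8.46% and 8.07%. All 3 lambda genes were higher there: Iglc1 was at 1984 CPM against 374 and 451, Iglc2 at 2215 against 861 and 946, and Iglc3 at 710 against 318 and 369. Igkc was close, at 9919 against 8300 and 8811 CPM, and median depth was 3065.5, 3113 and 3628 UMI, so that cluster 7 was not the deepest. The cells had no matched measure of surface protein, and whether 1 cell carries both chains was not tested.

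Switched B cells were rare. More Igha and IgG than Ighm and Ighd UMI occurred in 24 B-like cells (0.807%, interval 0.518% to 1.20%), 19 of them in cluster 2, 5 in cluster 1 and 0 in cluster 7. With at least 5 switched UMI there were 21, led by Ighg2b in 7, Ighg2c in 6, Igha in 5, Ighg1 in 2 and Ighg3 in 1. They held 7 to 160 switched UMI with a median of 23. Igha thus led in 5 of 21, against 49 of the 77 plasma cells, and 1 Igha-led cell was counted in both groups. With the immunoglobulin genes added to the clustering, the share of B-like cells with a switched lead was 0.415%. Leaving out the cell above the Jchain limit, 20 remained, with 0 to 26 Jchain UMI and a median depth of 8058.5 UMI, against 3233 in the 2951 B-like cells without a switched lead.

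These 20 cells differed from the other B-like cells in listed genes that played no part in their choice, again in CPM of the UMI outside the immunoglobulin genes and Jchain. Of 35 listed genes at 50 CPM or more in either group, 14 were at least 2-fold higher and 5 at least 2-fold lower, while over all 3430 genes compared 10.0% were at least 2-fold higher and 13.3% lower. All 5 compared genes of the B1 list were higher, with a median log2 fold of 3.34 against -0.13 over all genes. These were Zbtb32, a repressor linked to memory B cells, at 157 against 3.74 CPM (UMI in 12 of 20 cells), Bhlhe41 at 266 against 27.3 (16 cells), Anxa2 at 309 against 7.09 (11 cells), Spn (CD43) at 97.7 against 8.76 and Itgb1 at 130 against 32.4. Of the memory list, Cd80, the costimulatory ligand, was at 70.5 against 2.07 and Nt5e (CD73) at 59.7 against 7.97, and Cd38 was close at 147 against 124. Fas was at 59.7 against 2.26 and Cxcr3 at 136 against 1.87 (9 cells). The other genes at least 2-fold higher were Mzb1, Cd9, Itgb7, Itga4 and Mki67. Mzb1, of the marginal zone and plasma cell lists, was at 944 against 219. Cd9, of the marginal zone list, was at 65.1 against 16.7, in 4 cells, and at 21.7 without the highest of them. The integrin subunits Itgb7 and Itga4 were at 195 against 71.3 and 1541 against 522. The division gene Mki67 was at 59.7 against 3.15, in 6 cells. The remaining division genes were under 50 CPM in both groups. Stmn1 had 0 UMI in the 20 cells against 41.1 CPM, Top2a was at 21.7 against 15.2, and Birc5 had 1 UMI against 0.49 CPM. Pdcd1lg2, of the memory list, was at 10.9 against 11.2.

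Lower in the switched cells were the receptors of naive B cells. Fcer2a was at 27.1 against 274 CPM, Fcmr at 81.4 against 548, and Vpreb3 at 70.5 against 251. Cxcr4 was at 125 against 445. Cr2, the complement receptor, had 0 UMI in the 20 cells, where 3 UMI would be 16.3 CPM, against 51.7 in the others. The partners of the surface receptor did not differ by 2-fold, with Cd79a at 2159 against 2665 and Cd79b at 1758 against 1456. T cell markers summed to 333 CPM against 32.9, with a median of 0 UMI per cell and 10 or more in 2 of the 20 cells, and plasma markers to 1450 against 666. Their part in these differences was not tested, nor was that of the greater depth.

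Receptors that bind or carry antibody lay in other cells. Pigr was at 906 CPM in the 12 cholangiocyte-like and 145 in the 14 hepatocyte-like cells, and at 0 in the plasma-like cells. Fcgr2b, the inhibitory IgG receptor, was at 2612 CPM in liver sinusoidal endothelial-like cells against 109 in B-like cells. Fcgrt, the neonatal receptor that recycles IgG, was at 624 there and 296 in Kupffer-like cells. Fcmr and Fcer2a were highest in B-like cells, at 529 and 265 CPM, and Fcamr, a receptor for IgM and IgA, was at 0 in every class.

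Immunoglobulin UMI were also found in cells that do not make antibody. Droplets can take up free RNA from broken cells, and plasma cell RNA is abundant. In T-like cells Igkc had a UMI in 45.8% of 2063 cells at a median depth of 4906 UMI, and after thinning to 1000 UMI in 11.95%. After thinning the share was 9.39% in liver sinusoidal endothelial-like, 10.3% in classical monocyte-like, 11.9% in Kupffer-like, 13.4% in NK-like and 18.6% in neutrophil-like cells. The intervals of these classes overlapped, except that of the neutrophil-like cells (16.1% to 21.3%), the shallowest at a median of 2563 UMI, which overlapped only the NK-like one. The thinned Jchain share was 0.339% to 2.81% in the named classes of at least 100 cells, with 1.55% in B-like cells, so that a single Jchain UMI did not mark a secreting cell.

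**Figure D5:**
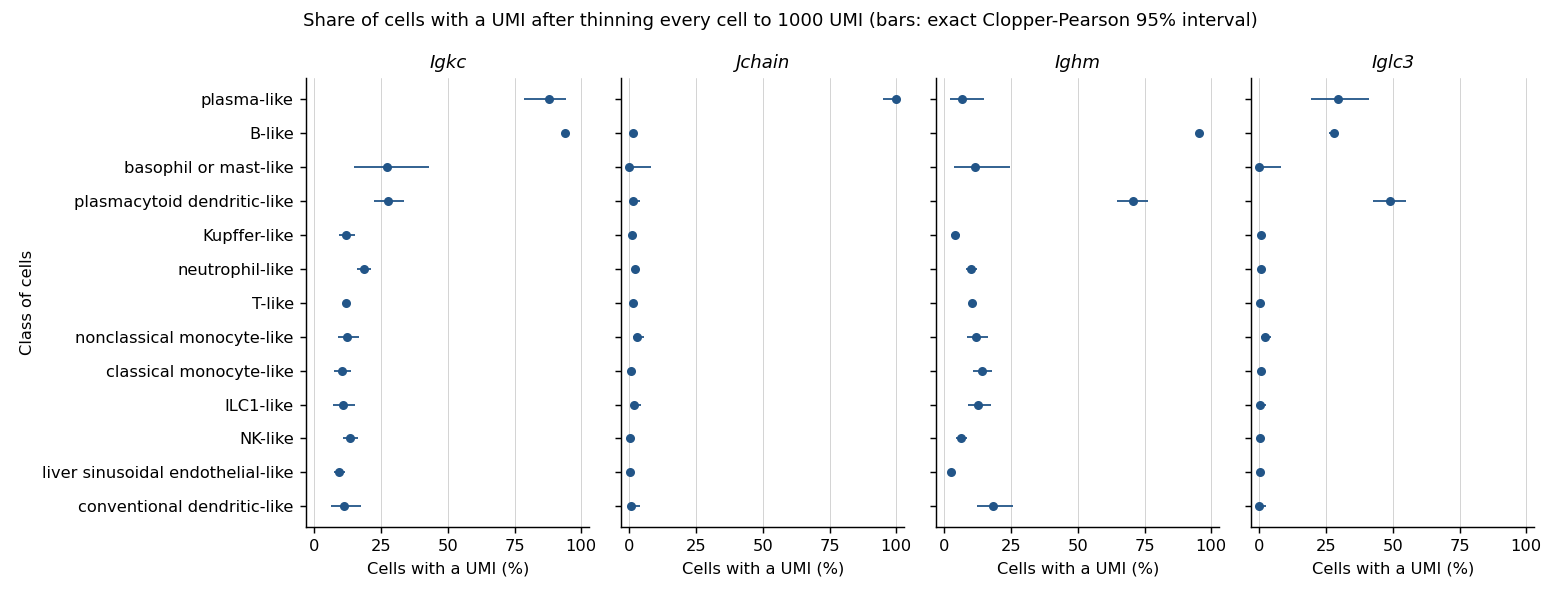
Share of cells (%) with at least 1 UMI of Igkc, Jchain, Ighm or Iglc3 in each class after thinning every cell to 1000 UMI; bars are exact Clopper-Pearson 95% intervals. Igkc is low and alike in most classes outside B-like and plasma-like cells, Jchain is near 0 outside plasma-like cells, and plasmacytoid dendritic-like cells stand apart for Ighm (70.8%) and Iglc3.

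In the classes given here the ratio of Igha to Igkc was nearer to that of plasma-like than of B-like cells. Plasmacytoid dendritic-like and basophil- or mast-like cells were the exceptions. The ratio of Ighm to Igkc was close to that of B-like cells in neutrophil-like and NK-like cells. It was higher in T-like, monocyte-like, dendritic-like and type 1 innate lymphoid-like cells. In Kupffer-like and liver sinusoidal endothelial-like cells it lay between that of plasma-like and that of B-like cells. Over cells with under 50 immunoglobulin UMI, there were 18.1 Igha UMI per 100 Igkc in Kupffer-like, 18.6 in neutrophil-like, 19.0 in NK-like, 19.4 in T-like and 21.3 in liver sinusoidal endothelial-like cells. The ratio in the plasma-like cluster was 22.7, and in B-like cells 0.767. Under the same limit it was 14.0 in conventional dendritic-like, 16.2 in classical monocyte-like and 19.9 in nonclassical monocyte-like cells. In type 1 innate lymphoid-like cells it was 21.3. It was 2.71 in plasmacytoid dendritic-like and 2.04 in basophil- or mast-like cells. Over the same cells there were 96.3 Ighm UMI per 100 Igkc in T-like, 51.8 in neutrophil-like, 44.8 in NK-like, 25.2 in Kupffer-like and 21.97 in liver sinusoidal endothelial-like cells. That ratio was 1.31 in the plasma-like cluster and 50.1 in B-like cells. Under the same limit it was 108 in nonclassical monocyte-like, 109 in type 1 innate lymphoid-like, 167 in classical monocyte-like and 178 in conventional dendritic-like cells. In plasmacytoid dendritic-like cells it was 275, and in basophil- or mast-like cells 54.1. The source of the Ighm UMI above the B-like ratio was not tested.

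A few barcodes outside the B-like and plasma-like classes held far more. Of 6965 such cells, 54 had at least 50 immunoglobulin UMI, and these held 37.2% of the UMI of the 9 genes and the lambda genes found outside those classes. Ighm led in 46 and a switched chain in 8. A T-like barcode held 282 Ighg2b and 1268 Igkc UMI but 4 Jchain UMI among 8141, with 13 UMI over 8 of the 10 plasma markers. Without it Igkc in T-like cells went from 265 to 148 CPM, and with at most 5% mitochondrial UMI allowed it was 124 CPM. Without the Kupffer-like barcode described above, Igha in Kupffer-like cells went from 249 to 17.6 CPM and Jchain from 54.1 to 6.45. The order of the classes for these chains rests on those barcodes.

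Ighm and Iglc3 in plasmacytoid dendritic-like cells did not follow the pattern of the other classes. These 262 cells, of the type that secretes type I interferon, had UMI of all 8 of their own markers in at least 25% of cells. Ighm was at 1211 CPM (1164 to 1259), between the plasma-like and the basophil- or mast-like classes, and its neighbours' intervals did not overlap it. A cell held 0 to 27 Ighm UMI with a median of 9, 99.2% of cells had a UMI at a median depth of 7983, and 70.8% did after thinning. Among the other classes of at least 100 cells outside B-like, the highest thinned shares were 18.2% in conventional dendritic-like and 14.1% in classical monocyte-like cells. Iglc3 was at 636 CPM (602 to 671), above the 405 in B-like cells, while Iglc2 was at 109 against 1130. There were 586 Iglc3 UMI per 100 Iglc2 UMI, against 35.8 in B-like cells. The split between these 2 genes, which share 95.9% of their coding bases, is uncertain here too.

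Ighd and heavy chain variable genes were lower beside Ighm in the same cells than in B-like cells, as in several other classes. Ighd was at 19.6 CPM, or 1.62 Ighd UMI per 100 Ighm UMI (1.16 to 2.20), against 18.1 in B-like cells (17.7 to 18.5). Heavy chain variable genes gave 3 UMI beside 2533 of Ighm, or 0.118 per 100 (0.0244 to 0.347), against 1.60 in B-like cells. Ighd per 100 Ighm was 3.80 in type 1 innate lymphoid-like (1.51 to 8.00), 5.24 in T-like, 5.35 in conventional dendritic-like and 6.61 in classical monocyte-like cells. In Kupffer-like cells it was 19.5. Heavy chain variable genes per 100 Ighm were at 0.323 in classical monocyte-like (0.0390 to 1.17) and 2.27 in Kupffer-like cells. In plasmacytoid dendritic-like cells lambda variable genes gave 0 UMI. Kappa variable genes gave 17 UMI, or 1.68 per 100 Igkc UMI, against 0.762 in B-like cells. Igkc was at 485 CPM, above the 117 to 301 in the other named classes of at least 100 cells outside B-like and plasma-like. B cell markers were near the level of other classes: the 10 genes summed to 106 CPM, against 9557 in B-like, 74.2 in T-like and 146 in classical monocyte-like cells. Cd79b was the only one in at least 25% of cells, at 49.2 CPM, and Pax5 (3.82) and Ms4a1 (4.30) were near 0. Xbp1 (453 CPM) and Mzb1 (301) were present and Tnfrsf17 was at 0.

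The 44 basophil- or mast-like cells had Igkc at 668 CPM, the highest of the 13 classes after plasma-like and B-like cells. Without 1 cell with at least 50 immunoglobulin UMI it was 434 CPM, beside 439 in plasmacytoid dendritic-like cells under the same limit. The 14 hepatocyte-like cells, too few to be ranked, stood at 766 CPM. The basophil- or mast-like cells had Ighm at 264 CPM, whose interval (202 to 340) overlapped that of nonclassical monocyte-like cells at 185. B cell markers summed to 611 CPM in them, with up to 35 UMI in a cell, against 74.2 CPM in T-like cells. Their Ighd was 37.7 per 100 Ighm, and the part of B cell RNA in the Igkc level was not tested.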

How the data were processed

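The authors deposited raw UMI counts for every gene and barcode, not normalized, as 1 matrix under both sample labels. The submitters' processing notes list Cell Ranger 2.1.1 and STAR, Seurat 2.3.4 and the build mm10 without a role for any. The header of the matrix names software version 3.0.0. The handling of reads that match several immunoglobulin genes was not stated there. Secreted and membrane forms share a row. No per-sample column lacked a sample.

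Barcodes with at least 500 UMI, 200 genes and at most 10% UMI of genes whose symbol starts with mt- were kept (the median depth of the clustered cells was 4250 UMI). Doublets were predicted with Scrublet and left out of the classes, but not out of the 77 plasma cells, none of which was predicted. Cells were scaled to 10000 UMI and clustered with scanpy 1.11.5 (2000 variable genes without the 394 immunoglobulin genes and Jchain, 30 principal components, 15 neighbours, Leiden resolution 1.0). Clusters were named "-like" from 19 marker lists; 3 clusters with markers of 2 classes or led by division genes stayed unnamed, and the lists of the 2 kinds of conventional dendritic cells were merged. These naming rules were set after the clusters were seen. CPM is the summed count of a gene per 1000000 UMI of a class. Thinning drew 1000 UMI from each cell without replacement. Likeness was tested on simulated data. Sequences and identities came from GENCODE M21 with Python 3.11.15 and Biopython 1.88.

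Genes named are the 9 members, the 3 genes most like each over the 13 classes with at least 30 cells, and the genes of the fixed lists. The members and lists were chosen with earlier results of these data known. In the 2 comparisons of cells, genes at 50 CPM in either group were compared and 2-fold, on values plus 1, was the limit; both were set after values were seen. No test was possible with 1 sample. In all, 98 alternative settings were run, 26 of them chosen after seeing the data.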

Additional observations from a re-analysis of the deposited data

Results flagged for a closer look

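The 826 barcodes that the filters left out, which no comparison above uses, held 2449 Igkc CPM (interval 2390 to 2509), or 6652 of 2716268 UMI, where a count of 0 would allow up to 1.10 CPM. Ighm was at 1148 CPM among them and Jchain at 28.7 CPM. Igkc reached 613 UMI in a barcode and was at 50 or more in 24, while the highest Jchain count was 8, so that no barcode left out met the limit for a plasma cell. What these barcodes contain was not tested.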

How the results depend on the processing

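Of 98 alternatives over 15 results, 80 stayed within the interval of the reported value: 39 of 39 for the number, classes and light chains of plasma cells, 18 of 26 for B-like, 13 of 21 for T-like and 10 of 12 for plasmacytoid dendritic-like cells. A Jchain minimum of 100 UMI, the removal of doublets, and limits of 1000 UMI and 500 genes each left the same 77 plasma cells. Their values for plasma cells were therefore identical and add no check. With at most 5% mitochondrial UMI, Ighm and Ighd in B-like cells were at 3382 and 736 CPM, T-like cells with an Igkc UMI at 43.4% and their Igkc at 124 CPM, and Ighm and Iglc3 in plasmacytoid dendritic-like cells at 1089 and 490.5 CPM. With the immunoglobulin genes in the clustering, Ighm in B-like cells was at 4470 CPM and their switched share at 0.415%. At resolution 2.0, Igkc in T-like cells was at 289 CPM and 43.3% had an Ighm UMI. Thinned to 1000 UMI, 48.9% of B-like cells had both Ighm and Ighd, and 11.95% and 10.5% of T-like cells had Igkc and Ighm UMI. Igkc in T-like cells was at 129 CPM without cells of 50 or more immunoglobulin UMI and at 148 CPM without the cell richest in Igkc. Without the cluster led by Vpreb3, Ighm and Ighd in B-like cells were at 3613 and 883 CPM and 87.6% had both. The cause was not tested for the mitochondrial limit, the clustering genes and the resolution. No paired analysis was possible because the labels hold 1 distinct matrix and no replicate numbers. Depth limits shares of cells with a UMI, and the number of cells (77 plasma cells) limits shares of isotypes.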
